A study of Mus musculus with 6 samples.

Results

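The 10 genes described here encode 5 Frizzled receptors (Fzd1, Fzd2, Fzd4, Fzd7 and Fzd8), the WNT ligand Wnt5b, the secreted WNT modulators Sfrp1 and Dkk3, and the Dishevelled-binding proteins Dact1 and Dact3. They were taken from the count table by gene symbol, and all 10 were found among its 13384 genes. The list was drawn up with results of the knockout and wild-type comparison in view, so the fold changes of these genes are given as a description and support nothing by themselves. The libraries came from left ventricles of adult mice, 3 with a global deletion of cytoglobin, labelled Cygb(-/-), and 3 wild-type littermates, labelled Cygb(+/+). Cytoglobin is a globin of fibroblasts and vessel wall cells. Every mouse of both groups had carried an osmotic pump delivering angiotensin II, a hormone that raises blood pressure, at 1.5 mg/kg/day for 2 weeks. Polyadenylated RNA was sequenced from each mouse singly. Cygb itself was not analysed here, so the genotypes rest on the labels, and no mouse without angiotensin II was part of the comparison.

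WNT proteins are secreted lipid-modified ligands that bind the cysteine-rich domain of Frizzled receptors. With the co-receptors LRP5 and LRP6 the signal passes through Dishevelled and stabilises beta-catenin, which activates genes together with TCF and LEF factors. Without them it can pass through Dishevelled to the planar cell polarity and calcium branches. Secreted Frizzled-related proteins such as SFRP1 carry a Frizzled-like domain and bind WNTs outside the cell, and DACT proteins bind Dishevelled inside it. In the injured or overloaded heart this pathway is best known from fibroblasts and vessels.

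Library totals lay between 23190864 and 30354857 counts. The ventricular muscle genes Myl2 (4533 to 5344 CPM) and Tnnt2 (8055 to 9440 CPM) were high in all 6 libraries, where CPM is the count per 1000000 of the TMM-scaled library total. Some features of the libraries touch the genes below. Wild-type replicate 1 had the highest atrial muscle transcripts, wild-type replicate 2 had the highest activated fibroblast transcripts, and fold changes over all genes moved with the GC content of the transcript.

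The promoters of Dact3 and Fzd4 are shown because these genes were the member with the smallest p-value and the single member that was higher in the knockout. Each line gives the 250 bases before the start of the gene, 5′ to 3′ on the gene's own strand, from RefSeq in GRCm38.p6. Dact3 is at chr7:16875067-16875316 and Fzd4 at chr7:89404116-89404365, both on the plus strand. Capitals mark every match, on either strand, to the TCF and LEF cores CTTTGA and CTTTGT, the GC box GGGCGG and the CCAAT box CCAAT, and matches may overlap.
Dact3: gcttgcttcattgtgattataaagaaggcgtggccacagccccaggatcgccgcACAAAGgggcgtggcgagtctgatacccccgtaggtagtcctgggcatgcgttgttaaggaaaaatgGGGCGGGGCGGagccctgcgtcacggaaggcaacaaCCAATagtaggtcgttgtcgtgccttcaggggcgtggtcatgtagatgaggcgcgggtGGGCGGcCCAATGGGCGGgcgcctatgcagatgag
Fzd4: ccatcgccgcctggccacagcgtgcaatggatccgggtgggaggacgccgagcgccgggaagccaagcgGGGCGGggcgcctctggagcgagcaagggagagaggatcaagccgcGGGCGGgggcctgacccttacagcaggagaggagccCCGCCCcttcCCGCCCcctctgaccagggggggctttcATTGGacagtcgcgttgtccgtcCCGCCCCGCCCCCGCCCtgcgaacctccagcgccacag

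The Dact3 window held 1 match to CTTTGT, read as ACAAAG, 4 GC boxes and 2 CCAAT boxes, and the Fzd4 window held 7 GC boxes, 1 CCAAT box and no match to either TCF and LEF core. Over 32851 promoter windows of the same length, CTTTGA occurred in 13.8%, CTTTGT in 16.5%, a GC box in 32.7% and a CCAAT box in 33.9%, and 4.09% held 4 or more GC boxes. Promoter entries were matched for 6 of the 10 genes. Fzd7 held 1 match to CTTTGT and 6 GC boxes, Dact1 no match to either core and 5 GC boxes, and Fzd1 1 match to each core and no GC box. Of 3 start sites listed for Wnt5b, 1 held a match to CTTTGA and 2 held GC boxes. The windows were rich in GC, from 51.2% in Fzd1 to 80.4% in Dact1. A match is a string of letters and not a bound site.

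In GRCm38, Fzd1 lies on chromosome 5 (4753839 to 4758216), Fzd2 on chromosome 11 (102604431 to 102608058), Fzd4 on chromosome 7 (89404366 to 89410110), Fzd7 on chromosome 1 (59482147 to 59486955) and Fzd8 on chromosome 18 (9212856 to 9216201). Cygb, the deleted gene, is also on chromosome 11, and the part of sequence carried along with the deleted locus in the Fzd2 level was not tested. Fzd1, Fzd2, Fzd7 and Fzd8 each have 1 exon and Fzd4 has 2. Wnt5b lies on chromosome 6 (119432531 to 119544824), Sfrp1 on chromosome 8 (23411383 to 23449632), Dkk3 on chromosome 7 (112116019 to 112159482), Dact1 on chromosome 12 (71309884 to 71320107) and Dact3 on chromosome 7 (16875317 to 16887301). All 10 are protein-coding, and each value covers the reads that the authors assigned to the whole gene. Between the transcripts of Fzd1, Fzd2 and Fzd7 the longest identical stretch was 47 nucleotides. Whether any of their reads were split between these copies depends on the read length and was not tested. Fzd4 overlaps Tmem135, Wnt5b overlaps Fbxl14 and Dact1 overlaps 2700049A03Rik, and no use of strand is given in the sources used here. The log2 fold changes of these neighbours were 0.12 (SE 0.13) for Tmem135, -0.056 (SE 0.17) for Fbxl14 and 0.23 (SE 0.24) for 2700049A03Rik.

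The plot of CPM by library shows each of the 10 genes in the 6 libraries. In 9 of the 10 the log2 fold change, given throughout as knockout minus wild type, was below 0, as it was for 50.6% of all genes. The median was -0.66 over the 10 and -0.0045 over all genes. In edgeR's quasi-likelihood test with Benjamini-Hochberg adjustment over the whole table, 2 of the 10 were past 0.05 (Dact3 and Fzd2), against 0.112% of all genes. Both were lower in the knockout, where 0.0224% of all genes were called lower and 0.0897% higher. DESeq2 called 6 of the 10 (4.62% of all genes), limma-voom 2 (0.105%) and edgeR with the GC and length correction 2 (0.359%). The 6 called by DESeq2 were Fzd1, Fzd2, Fzd4, Wnt5b, Dkk3 and Dact3. The knockout and wild-type libraries did not overlap for 8 of the 10, against 22.3% of all genes, with 7 lower in the knockout (background 10.5%) and 1 higher (background 11.8%). As the genes were picked from this contrast, nothing is read from these shares. The fold changes varied among the 10 from 0.82 for Fzd4 to -1.54 for Dkk3.

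**Figure D1:**
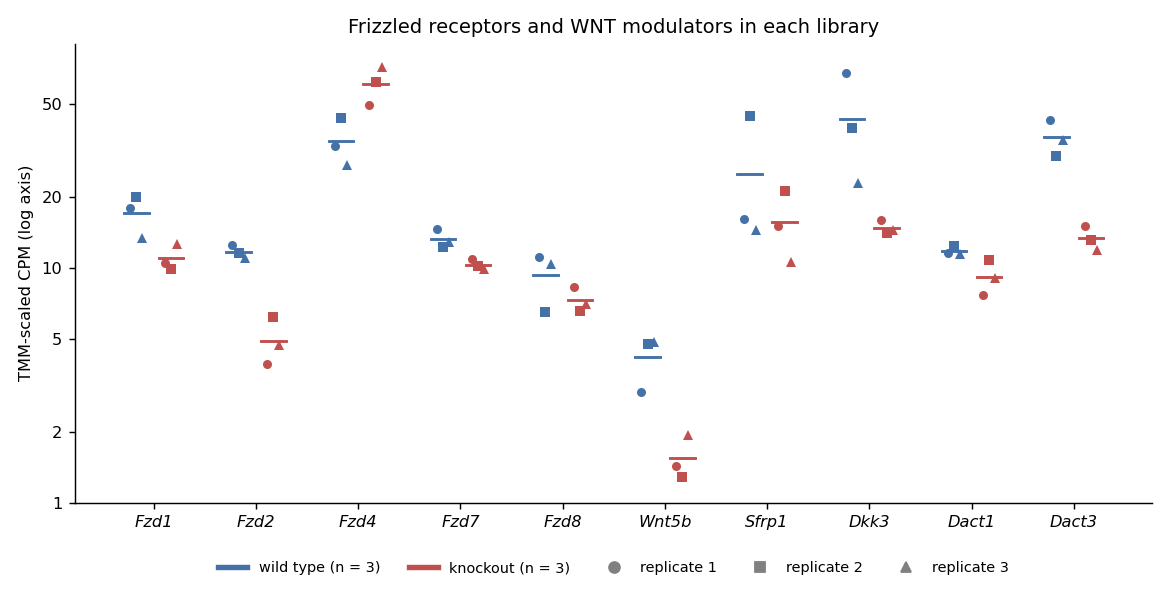
Levels of the 10 genes in TMM-scaled CPM on a log axis, with 3 wild-type libraries in blue, 3 knockout libraries in red, a marker shape for each replicate number and a bar at each group mean. Fzd4 is higher in all 3 knockout libraries, the groups overlap for Fzd8 and Sfrp1, and the other 7 genes are lower in all 3 knockout libraries.

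Among the receptors, Fzd2 was lower and Fzd4 higher in the knockout. Fzd2, a receptor closely related to Fzd1 and Fzd7, was at 3.88, 6.16 and 4.67 CPM in knockout replicates 1, 2 and 3 and at 12.5, 11.6 and 11.01 CPM across wild-type replicates 1, 2 and 3, the order used throughout. The wild-type libraries lay close together, and even the highest knockout library stood well below them. The log2 fold change was -1.26 (SE 0.20), a 2.39-fold lower level. It ranged from -1.45 to -1.11 with 1 library left out. The edgeR adjusted p was 0.0362, and 0.0537 without robust estimation. That adjusted p rose above 0.05 without knockout replicate 1 (0.132), knockout replicate 3 (0.202), wild-type replicate 1 (0.0619) or wild-type replicate 3 (0.0690).

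Fzd4, the receptor through which Norrin and WNTs shape blood vessels, was at 49.3, 62.1 and 71.7 CPM in knockout hearts and 33.0, 43.5 and 27.4 CPM in wild-type hearts. The highest wild-type library, replicate 2, stayed below the lowest knockout library. Its log2 fold change was 0.82 (SE 0.18), and it was not past 0.05 in edgeR (adjusted p = 0.0726, range 0.00377 to 0.347 over 16 alternatives). Without wild-type replicate 2 the log2 fold change was 1.02 (edgeR adjusted p = 0.00578), in a fit where 13.6% of all genes were called. Endothelial markers stand beside this gene, since Fzd4 is known from endothelium. Their summed level was 1489 to 1908 CPM in knockout hearts and 1668 to 2004 CPM in wild-type hearts, with none of the 10 markers at 0. None of the 10 passed the edgeR test (3 had an unadjusted p under 0.05, DESeq2 called 1 and limma-voom 0). Over all genes these shares were 19.2%, 4.62% and 0.105%. The median log2 fold change of the 10 markers was -0.075, and -0.18 with the GC and length correction. In bulk tissue, a change in the number of cells of a type and a change in RNA per cell cannot be told apart.

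The other receptors had smaller fold changes, and none was past 0.05 in edgeR (adjusted p = 0.110 for Fzd1, 0.235 for Fzd7 and 0.396 for Fzd8). Fzd1 was at 10.5, 9.90 and 12.7 CPM in knockout hearts and 18.0, 20.1 and 13.5 CPM in wild-type hearts, for a log2 fold change of -0.64 (SE 0.18). The groups were separated by a narrow gap, between knockout replicate 3 and wild-type replicate 3. Fzd7 was at 10.9, 10.2 and 9.88 CPM in the knockout against 14.7, 12.3 and 12.9 CPM (-0.36, SE 0.16). Fzd8, a receptor closest to Fzd5, was at 8.33, 6.58 and 7.01 CPM against 11.1, 6.51 and 10.4 CPM (-0.35, SE 0.22). Wild-type replicate 2 lay below all 3 knockout libraries for Fzd8, so its groups overlapped.

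Set against each other per kilobase of transcript, the receptors changed places while their sum moved little. The summed level of the 9 measured Frizzled genes was 25.4 ± 1.88 CPM per kb in the knockout and 26.5 ± 1.48 CPM per kb in the wild type (SD, n = 3 each). Fzd4 made up 31.2%, 36.4% and 39.1% of that sum in the knockout libraries and 17.7%, 24.0% and 16.4% in the wild-type libraries. Fzd2 made up 4.50%, 6.63% and 4.67% against 12.3%, 11.8% and 12.1%. The share of Fzd1 was 10.4% ± 0.928 in the knockout and 15.4% ± 2.44 in the wild type. Fzd6, a receptor outside the 10 genes, took 28.6% ± 2.75 and 29.7% ± 4.46, so it led the wild-type libraries, while Fzd4 led 2 of the 3 knockout libraries. In knockout replicate 1 Fzd6 (31.5%) and Fzd4 (31.2%) were nearly equal. These shares restate the same contrast and depend on the length taken for each transcript, here the longest in GENCODE M21. They were taken without the GC and length correction, which moved the log2 fold change of Fzd4 to 0.63 and of Fzd2 to -1.10. With the RefSeq span for single-exon genes, Fzd4 stood at 34.5% and 18.7%, whereas Fzd8 went from 4.85% to 8.39% in the knockout and from 5.90% to 10.1% in the wild type.

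**Figure D2:**
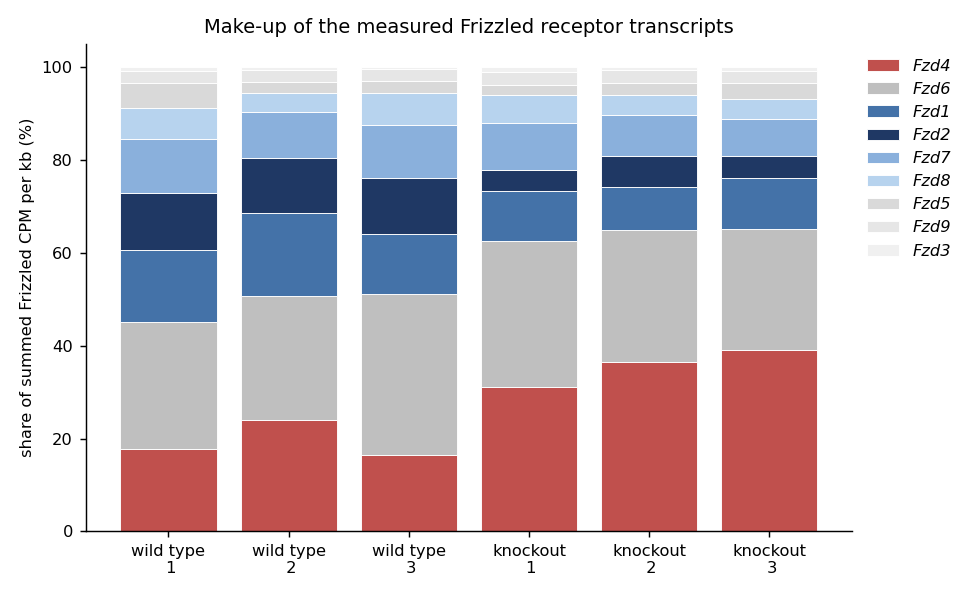
Stacked bars give the share of each measured Frizzled gene, in percent of the summed CPM per kb, for the 3 wild-type and 3 knockout libraries; each bar is 1 library. The red segment (Fzd4) is 16.4% to 24.0% in the wild type and 31.2% to 39.1% in the knockout, and the dark blue segment (Fzd2) is 11.8% to 12.3% and 4.50% to 6.63%.

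Of the Dishevelled-binding genes, Dact3 was lower in the knockout, and Dact1 did not pass the test (edgeR adjusted p = 0.274). Dact3 was at 15.1, 13.2 and 11.9 CPM in knockout hearts and 42.8, 30.01 and 35.3 CPM in wild-type hearts, so the lowest wild-type library was still well above the highest knockout library. The log2 fold change was -1.43 (SE 0.17), a 2.69-fold lower level. The edgeR adjusted p of 0.00708 became 0.0502 without knockout replicate 1 and 0.0700 without knockout replicate 3. Its paralog Dact1 was at 7.68, 10.8 and 9.08 CPM against 11.6, 12.4 and 11.5 CPM (-0.36, SE 0.17). The third DACT gene, Dact2, was near the lower end of the table, at 0.65 to 1.15 CPM in knockout hearts and 0.78 to 1.98 CPM in wild-type hearts.

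Dact3 had the richest transcript in GC of the 10, at 66.4%, in the 99.8th percentile of all genes. Fzd4 had the poorest, at 47.0%. Over all genes the median log2 fold change went from 0.21 in the lowest GC quintile to -0.25 in the highest. Fzd2 (56.6%), Wnt5b (60.0%) and Dact3 belonged to the highest quintile, Fzd1, Fzd7 and Dact1 to the next, Fzd8, Sfrp1 and Dkk3 to the middle one, and Fzd4 to the second lowest. When the dependence on GC content and length was taken out of every library, Dact3 moved from -1.43 to -0.90 (SE 0.14, edgeR adjusted p = 0.0459), which is over 1.5 times closer to 0. The same correction took Wnt5b from -1.43 to -1.13, Fzd4 from 0.82 to 0.63 and Fzd2 from -1.26 to -1.10 (edgeR adjusted p = 0.0459). Dkk3, at mid-range GC content, went from -1.54 to -1.50. Fzd8 was at -0.42 and Sfrp1 at -0.71 with the correction. The median over the 10 was -0.62, against 0.0073 over all genes.

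**Figure D3:**
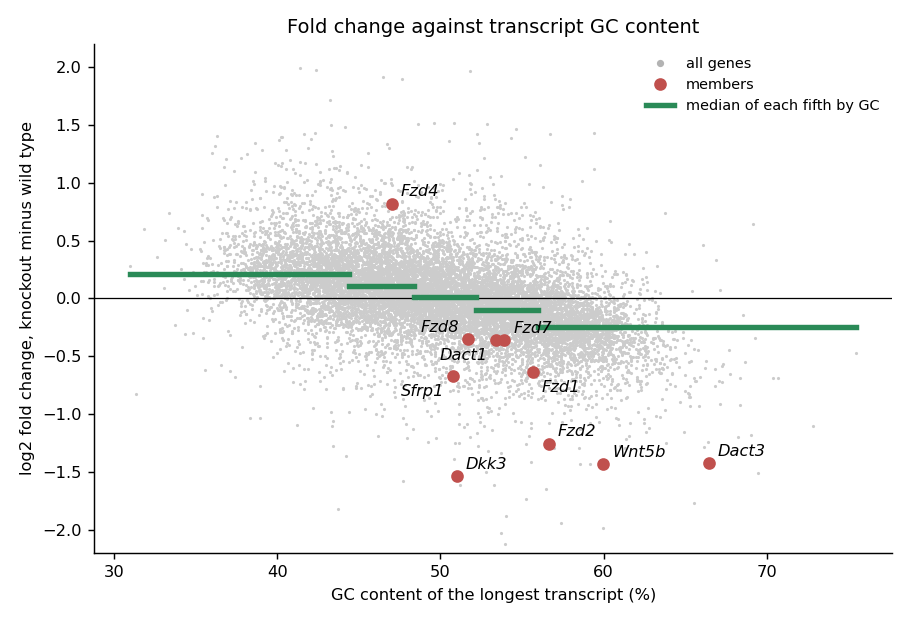
The log2 fold change of each gene (knockout minus wild type) against the GC content of its longest transcript, with all genes in grey, the 10 genes in red and the median of each GC quintile in green; 4 genes lie beyond the vertical range. Medians step down from 0.21 to -0.25, and Dact3, Wnt5b and Fzd2 lie in the highest quintile, well below its median.

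**Figure D4:**
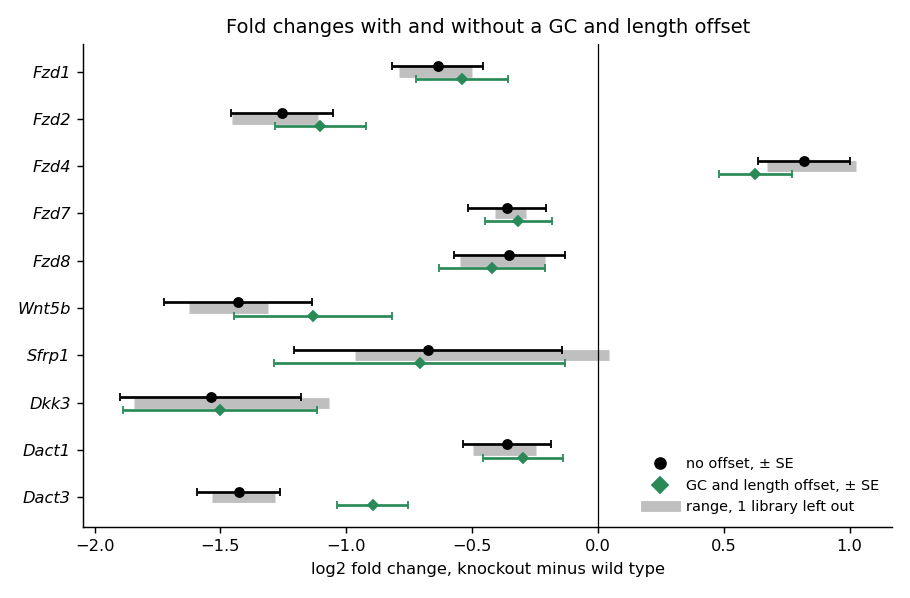
Log2 fold changes of the 10 genes from edgeR, in black without and in green with the GC and length offset (bars are SE), over grey bars for the range when 1 library is left out. All but Fzd4 are below 0, the grey bar of Sfrp1 alone reaches past 0, and Dact3 moves most with the offset, from -1.43 to -0.90.

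Wnt5b, a ligand known mainly from signalling that does not use beta-catenin, had the fewest CPM of the 10. It was at 1.43, 1.29 and 1.94 CPM in knockout hearts and 2.96, 4.73 and 4.85 CPM in wild-type hearts. All 3 knockout libraries lay below all wild-type ones, with wild-type replicate 1 nearest to them. The log2 fold change was -1.43 (SE 0.29), with an edgeR adjusted p of 0.0634 and a range of 0.00179 to 0.235 over 15 alternatives. Its paralog Wnt5a, also a ligand of the branches without beta-catenin, was at 10.5 ± 2.04 CPM against 10.3 ± 2.18 CPM (0.036, SE 0.20), and at -0.19 with the GC and length correction.

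Dkk3, a divergent and secreted member of the Dickkopf family, was lower in all 3 knockout libraries, with a wide spread among the wild-type ones. It was at 15.97, 14.1 and 14.5 CPM in knockout hearts, and at 67.4, 39.3 and 23.003 CPM across the wild-type ones. The knockout libraries were nearly equal, while every wild-type library lay above them at a different height. The log2 fold change was -1.54 (SE 0.36), with an edgeR adjusted p of 0.108. It was -1.07 without wild-type replicate 1 (edgeR adjusted p = 0.0749) and -1.84 without wild-type replicate 3 (edgeR adjusted p = 0.00716). Over 16 alternatives the adjusted p of Dkk3 ranged from 1.4e-05 in DESeq2 to 0.42 in edgeR without knockout replicate 3. Of 7 measured atrial muscle markers, 6 were also highest in wild-type replicate 1, and Nr2f2 was highest in wild-type replicate 3. In wild-type replicate 1 Myl7 was at 249.6 CPM and Myl4 at 391.7 CPM, against at most 27.6 and 36.2 CPM elsewhere. Both were lower in wild-type replicate 2 (19.2 and 22.7 CPM) than in wild-type replicate 3, the reverse of Dkk3. The summed level of the 7 markers was 515 to 591 CPM in knockout hearts and 730 to 3111 CPM in wild-type hearts, with none at 0. Nppa made up most of each sum, at 2282, 2058 and 623 CPM across the wild-type libraries, so the sums mostly restate this gene. The sum of 2132 CPM in wild-type replicate 2 does not stand for Myl7 and Myl4, which were low there. None of the 7 passed the edgeR test (2 had an unadjusted p under 0.05, DESeq2 called 1 and limma-voom 0). Over all genes these shares were 19.2%, 4.62% and 0.105%, and DESeq2 gave no adjusted p for Myl4 and Myl7. The part of atrial muscle cells in the Dkk3 level was not tested.

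Sfrp1 followed a single library. It was at 15.2, 21.3 and 10.6 CPM in knockout hearts and 16.1, 44.5 and 14.5 CPM in wild-type hearts, so apart from wild-type replicate 2 the groups shared 1 range. The log2 fold change of -0.68 (SE 0.53) was 0.043 without that library. The related secreted inhibitors Sfrp2 and Frzb peaked there too, Sfrp2 at 37.7 CPM (5.34 to 8.78 CPM elsewhere) and Frzb at 26.9 CPM (8.77 to 13.7 CPM elsewhere). So did 9 of the 12 activated fibroblast markers, among them Postn (542 CPM, others 97.8 to 172 CPM) and Comp (81.4 CPM, others 10.05 to 20.9 CPM). Of the other 3, Ccn2 and Acta2 were highest in wild-type replicate 1 and Fap in knockout replicate 2. The 12 activated fibroblast markers summed to 325 to 486 CPM in knockout hearts and 514 to 1288 CPM in wild-type hearts, with none at 0, and the highest sum was that of wild-type replicate 2. The part of fibroblasts in the Sfrp1 level was not tested.

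**Figure D5:**
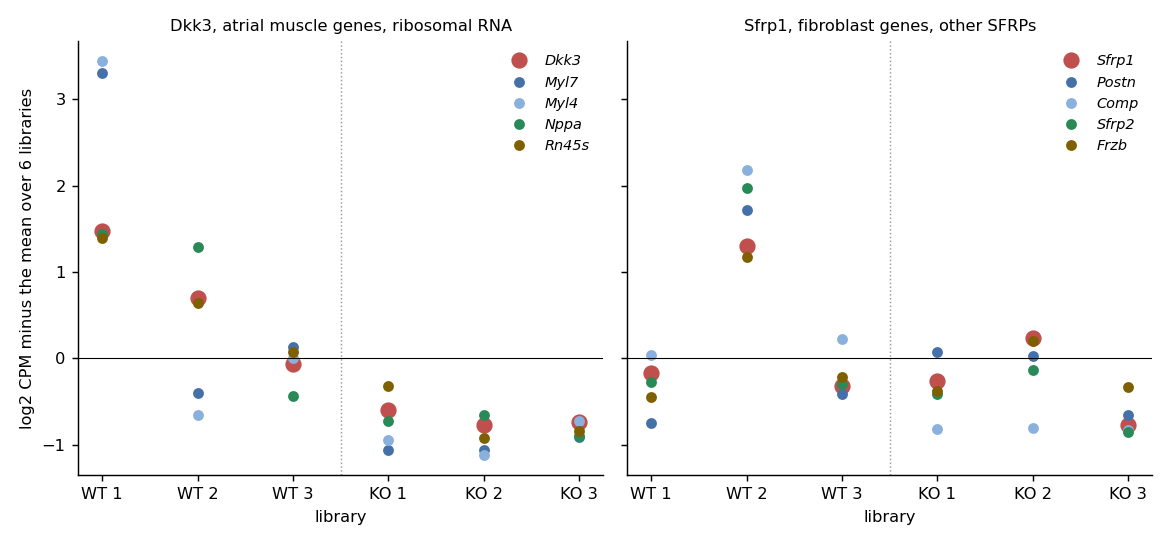
Log2 CPM of each gene minus its own mean over the 6 libraries, with wild-type (WT) libraries left and knockout (KO) libraries right of the dotted line. Left, Dkk3 is highest in WT 1 with Myl7, Myl4, Nppa and Rn45s; right, Sfrp1 is highest in WT 2 with Postn, Comp, Sfrp2 and Frzb.

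Levels per kilobase of transcript ordered the 10 genes differently in the groups. In the wild type Dkk3 (12.9 ± 6.68 CPM per kb) and Dact3 (12.1 ± 2.15) came first, followed by Sfrp1 (5.73 ± 3.87), Fzd4 (5.15 ± 1.22) and Fzd1 (4.10 ± 0.81). Next were Dact1 (3.24 ± 0.14), Fzd2 (3.20 ± 0.21), Fzd7 (2.93 ± 0.27), Wnt5b (1.76 ± 0.45) and Fzd8 (1.56 ± 0.41). The mean ± SD ranges overlapped for most neighbours, so much of this order was not resolved. Dkk3 overlapped Dact3, Sfrp1 and Fzd4, Fzd4 overlapped Fzd1, and Fzd1 overlapped Dact1 and Fzd2. Dact1, Fzd2 and Fzd7 overlapped, as did Wnt5b and Fzd8, and Sfrp1 overlapped every gene but Dact3. In the knockout Fzd4 (9.09 ± 1.67 CPM per kb) led, with Dact3 (4.48 ± 0.54), Dkk3 (4.42 ± 0.29) and Sfrp1 (3.58 ± 1.23) next. Fzd1 (2.63 ± 0.35), Dact1 (2.52 ± 0.43) and Fzd7 (2.28 ± 0.12) had overlapping ranges of mean ± SD, and Fzd2 (1.34 ± 0.32), Fzd8 (1.22 ± 0.15) and Wnt5b (0.66 ± 0.14) closed the order. In the knockout the ranges of Dact3, Dkk3 and Sfrp1 also overlapped, as did those of Fzd2 and Fzd8. Sfrp1 overlapped Fzd1, Dact1 and Fzd7 too, while Fzd4 and Wnt5b overlapped no other gene. The place of Fzd8 rests on the length taken for it. With the RefSeq span it stood at 2.18 CPM per kb in the knockout and 2.79 in the wild type, beside Fzd7 at 2.15 and 2.76, while Fzd2 stood at 1.35 and 3.23. Pairwise likeness of the library profiles was measured by the root-mean-square difference of log2 CPM, each gene centred on its mean over the 6 libraries. By this measure Fzd7 was closest to Fzd8 (0.20) and Dact1 (0.21), and Fzd2 closest to Dact3 (0.29).

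Outside the 10 genes, those with profiles most like Dact3 among 13153 compared were Acta1, the skeletal alpha-actin gene (distance 0.15 over 6 libraries), Prr7 and Ephx3. Acta1 stood at 667 to 786 CPM in knockout hearts and 1602 to 1949 CPM in wild-type hearts. Nearest to Fzd2 were Pou2f2, a POU-domain transcription factor gene (0.16), Igsf23 and Slc1a4. Nearest to Fzd4 were Rnf213, a ubiquitin ligase gene (0.076), Map3k15 and Zfp993. Nearest to Dkk3 were Rn45s, the ribosomal RNA precursor (0.15), Lars2, the mitochondrial leucyl-tRNA synthetase gene (0.16), and Rn18s, a ribosomal RNA (0.20). In wild-type replicates 1, 2 and 3 Rn45s reached 26480, 15801 and 10590 CPM, and in knockout hearts 8063, 5316 and 5617 CPM. The part of ribosomal RNA in the Dkk3 level was not tested.

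The rest of the pathway was described by lists. Of 126 listed WNT genes outside the 10, 93 were measured, and none passed the edgeR test. Of the 93, 15 had an unadjusted p under 0.05 (16.1%, against 19.2% of all genes), 5 of them higher and 10 lower in the knockout. DESeq2 called 3 higher (Lrp6, Apc and Tnks) and 2 lower (Ccn4 and Nfatc4), where it called 4.62% of all genes, and limma-voom called 0. The groups did not overlap for 22 of the 93, a share near the 22.3% of all genes. Their median log2 fold change was -0.088, beside -0.0045 over all genes.

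Among the 8 measured genes of ligands and their release, the smallest p-values were those of Porcn, the enzyme that lipidates WNTs (-0.31, SE 0.23), Wnt9a (-0.30, SE 0.22) and Wnt2b (0.36, SE 0.29), and none had an unadjusted p under 0.05. With the GC and length correction these were at -0.078, -0.12 and 0.53. Of 12 other receptors and co-receptors, Lrp6 was at 70.2 ± 8.80 CPM in knockout hearts and 47.3 ± 8.31 CPM in wild-type hearts. Its log2 fold change was 0.57 (SE 0.15), and the adjusted p in edgeR was 0.101, with a range of 0.0115 to 0.421 over the alternatives. With the GC and length correction it was at 0.30, and its transcript has a GC content of 46.0%. Tspan12, a partner of Fzd4 in Norrin signalling, was at 0.20 (SE 0.13), and 0.036 with that correction. Of 4 secreted inhibitors measured outside the 10, Wif1, a WNT-binding protein, had 2.25 ± 0.55 CPM against 4.204 ± 1.90 CPM (-0.91, SE 0.33), and the log2 fold change was -0.47 without wild-type replicate 3. All 3 measured genes of the R-spondin axis, Lgr6 (0.32, SE 0.20), Znrf3 (0.29, SE 0.25) and Lgr4 (0.14, SE 0.14), were above 0, although Lgr4 was at -0.027 with the correction and Lgr6 at 0.12 without wild-type replicate 2.

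Of the 21 cytoplasmic transducers, 13 were below 0, and 2 components of the beta-catenin destruction machinery and its control had the smallest p-values. Apc, a scaffold of that complex, was at 75.4 ± 11.7 CPM against 48.4 ± 11.7 CPM (0.64, SE 0.18), and Tnks, the tankyrase that marks axin for breakdown, at 56.8 ± 8.46 CPM against 38.0 ± 7.14 CPM (0.58, SE 0.16). Corrected for GC content and length they were at 0.30 and 0.33. Apc2 was at -0.64 (SE 0.24), or -0.31 without wild-type replicate 1, and Ctnnb1, which encodes beta-catenin, at -0.091 (SE 0.12). Among 12 nuclear effectors Bcl9, a coactivator of beta-catenin, was at 0.42 (SE 0.13), Tle5 at -0.43 (SE 0.16) and Pygo2 at -0.34 (SE 0.14). Corrected in the same way they were at 0.45, -0.085 and -0.11.

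Targets of beta-catenin had 10 of 17 below 0, with a median of -0.15. Ccn4, a matricellular gene, was at 1.81 ± 0.57 CPM against 4.17 ± 1.98 CPM (-1.19, SE 0.36), Twist1 at 1.82 ± 0.46 CPM against 3.49 ± 1.02 CPM (-0.94, SE 0.31) and Bambi, a TGF-beta pseudoreceptor gene, at -0.45 (SE 0.16). Ccn4 was at -0.74 without wild-type replicate 2. In the planar cell polarity and calcium branch, 11 of 21 were below 0, and Nfatc4, a calcineurin-regulated transcription factor gene, had 6.98 ± 1.37 CPM in the knockout where the wild type had 12.7 ± 1.35 CPM (log2 fold change -0.86, SE 0.19, and an adjusted p of 0.0722 in edgeR). Prkca (0.40, SE 0.14) and Daam2, a formin that binds Dishevelled (-0.47, SE 0.22), followed by p-value. Prkca was at 0.14 with the GC and length correction, and Daam2 at -0.14 without wild-type replicate 1.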

How the data were processed

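Polyadenylated RNA of 6 left ventricles, each from 1 mouse, was sequenced. The deposited table holds unnormalised read counts, in whole numbers, by gene and library. Per the submitters' processing notes, mm10 was the build and DESeq2 was used. The aligner, counter, annotation and strand setting were not given in the sources used here. Every gene had at least 12 counts in every library, so a gene silenced in 1 group could be missing from the table. Groups came from the labels (3 knockout, 3 wild type).

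Counts of all genes were fitted in edgeR 4.0.16 (R 4.3.3) with TMM factors, the tool's low-count filter (0 genes removed; all 10 members passed) and robust quasi-likelihood estimation. Tests were two-sided, Benjamini-Hochberg adjustment ran over the whole table, and the threshold was 0.05. The common biological coefficient of variation was 0.166. At a few CPM counting error adds to the spread between animals. Transcript length and GC content came from the longest GENCODE M21 transcript (97.9% of genes), taken among protein-coding transcripts where there were any. Genes were matched to it by Entrez identifier, or by gene symbol where that gave no transcript. Positions came from RefSeq for GRCm38.p6, the assembly of mm10, by Entrez identifier. Promoters came from RefSeq for that assembly by gene symbol, and entries on chromosome 18, where Fzd8 lies, were left out. The scripts were tested on 3 simulated data sets, each with 200 changed genes. The edgeR fit recovered 13.9% of log2 changes of 0.5, 74.6% of those of 1 and 96.5% of those of 2. Of the genes it called there, 8.03% were false. Simulated counts were drawn for each gene separately, with no GC trend and no library standing apart from its group. These figures therefore do not give the share of real changes found in the 6 libraries. Alternatives were other size factors and filters, DESeq2 1.42.0, limma-voom (limma 3.58.1), estimation without robustness, the replicate number as a block, an offset for GC content and length (splines with 4 degrees of freedom), and each library left out.

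The members and lists were chosen with earlier results of these data known. Named genes were the members, up to 3 genes per pathway list by smallest p-value, any listed gene past the threshold, markers beside a member's result, and the 3 genes of at least 1 CPM most like Fzd2, Dact3, Fzd4 and Dkk3. Dact2, Wnt5a, Fzd6, Ctnnb1 and the genes overlapping a member were named outside this rule, after their values were seen. The markers of the other cell types fixed for this work are given in the closing section.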

Additional observations from a re-analysis of the deposited data

How the results depend on the processing

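Every fold change of the 10 genes kept its sign under the alternatives run except that of Sfrp1, which ranged from -0.96 to 0.043 with 1 library left out and was above 0 in the fit lacking wild-type replicate 2. The number of genes called over the whole table was 15, and it was 618 with DESeq2, 218 with the replicate block, 48 with the GC and length offset, 33 with that offset and the replicate block, and 0 to 1826 with 1 library left out (0 when knockout replicate 3 was dropped, 1 for knockout replicate 1, 8 for wild-type replicate 1 and 1826 for wild-type replicate 2). Of the 10 genes, 2 were called, and 6 with DESeq2, 1 without robust estimation, 5 with the replicate block and 0 to 4 with 1 library left out. Of the other WNT genes, 0 were called, and 5 with DESeq2, 1 (Nfatc4, chosen after its values were seen) with the replicate block and 0 to 11 with 1 library left out. Fewer samples enter each leave-one-out fit, and the cause of these differences was not tested. The replicate numbers are shared by the groups but are not stated to pair animals, and deviations of same-numbered libraries from their group means correlated at -0.12, -0.076 and -0.15, so no library was closest to its own number. The stricter filter removed Wnt5b and gave no value for it. Another length for single-exon genes, chosen after seeing the data, moved 4 of 10 Frizzled shares by over 1 SD. Counting error limits genes of low count such as Wnt5b and Dact2, both under 5 CPM in every library.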

Other observations

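Other cell types fixed as markers were measured beside the WNT genes, and none of their genes passed the edgeR test over the whole table. Over all genes 19.2% had an unadjusted p under 0.05 in edgeR, DESeq2 called 4.62% and limma-voom 0.105%. Resting fibroblast genes were all below 0 (12 of 12, median log2 fold change -0.41), and 4 had an unadjusted p under 0.05, with 3 called by DESeq2 and 0 by limma-voom. In wild-type replicate 2, 10 of the 12 were highest, and without it 6 of 12 were below 0, with a median of -0.093. Tcf21, a transcription factor gene of cardiac fibroblasts, was at 7.29 ± 0.61 CPM in knockout hearts and 11.7 ± 2.26 CPM in wild-type hearts, while Pdgfra, the fibroblast receptor gene, was at -0.0046 (SE 0.16). Smooth muscle genes were below 0 for 7 of 7 (median -0.25, 3 at an unadjusted p under 0.05, 2 by DESeq2 and 0 by limma-voom), or for 4 of 7 (median -0.026) without wild-type replicate 1. Pericyte genes were below 0 for 5 of 7 (median -0.36, or -0.23 without that library, with 5, 0 and 0 by the same counts). Of the 5 with an unadjusted p under 0.05, 4 were lower in the knockout and 1, Rgs5, was higher (0.47, SE 0.19).

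The 5 measured mesothelial and epicardial genes summed to 21.6 to 27.7 CPM in knockout hearts and 31.2 to 59.0 CPM in wild-type hearts. The highest sum was that of wild-type replicate 1. Of the 5 genes, 4 were below 0, and Wt1 was at 0.14 (SE 0.26). Their median was -1.04 (3 at an unadjusted p under 0.05, 2 by DESeq2 and 0 by limma-voom). Ventricular muscle genes had a median of -0.13 over 8, and of 0.022 with the GC and length correction (2, 1 and 0 by the same counts), nerve and Schwann cell genes 0.25 over 4, and -0.0016 without wild-type replicate 2 (0, 0 and 0), and leukocyte genes 0.31 over 5 (1, 0 and 0). Of the 2 ventricular muscle genes with an unadjusted p under 0.05, Ryr2 was higher (0.70, SE 0.16) and Irx4 lower (-0.50, SE 0.16). All 5 leukocyte genes were above 0, or 4 of 5 without wild-type replicate 1, and their median was 0.13 without knockout replicate 2. Activated fibroblast genes were below 0 for 10 of 12, with a median of -0.88 (4, 3 and 0), and without wild-type replicate 2 for 6 of 12, with a median of -0.12. Their part in the levels of the WNT genes was not tested.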
